A study of Mus musculus with 6 samples.

Results

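The SLAM family is a set of 9 receptor genes, namely Slamf1, Cd48, Cd84, Ly9, Cd244a, Slamf6, Slamf7, Slamf8 and Slamf9, and their probe sets were taken by gene name from a mouse expression array. Each gene had 1 probe set of its own and shared none, so the family made up 9 of the 28815 probe sets on the array. Expression was measured on 6 arrays, 3 of hematopoietic stem cells (HSC) from mice lacking Selp (Selp-/-) and 3 of HSC from wild-type (WT) mice. The labels give the strain C57BL/6 for both genotypes and no other allele, treatment or age, and number the arrays 1 to 3 within each genotype. Selp encodes the adhesion receptor P-selectin, and the study asked which genes it controls in HSC. The sources used here do not describe the sort of the HSC. They also do not state whether each array had its own mouse, so a p-value here speaks only of the spread among these arrays, part of which may be technical.

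SLAM receptors are immunoglobulin-like surface proteins of blood cells. Most bind another copy of themselves on a neighbouring cell, while CD48 and CD244 bind each other, and most signal through small adaptors such as SAP, the product of Sh2d1a. In mouse bone marrow, CD150 (the product of Slamf1) on the surface together with a lack of CD48 is widely used to tell HSC from progenitors. CD244 and CD229 (the product of Ly9) serve in finer versions of the same gate. The arrays measured RNA of the sorted cells, not the surface protein.

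Median deposited intensities were 701, 638 and 713 in Selp-/- 1 to 3 and 636, 563 and 751 in WT 1 to 3. Selp had no probe set under its own name, so the genotype labels were not checked by the deleted gene. The arrays numbered 3 stood apart in both genotypes. Of 10 measured genes of an HSC identity list, 6 passed the test for array number described below, which 12.8% of all tested probe sets passed. All 6 were lower in the arrays numbered 3. The HSC transcription factor Hlf had log2 levels of 12.13, 12.53 and 8.81 in Selp-/- 1 to 3 and 12.45, 12.36 and 8.88 in WT 1 to 3. Of 7 tested mast cell and basophil genes, 6 passed, all higher in the arrays numbered 3. Every comparison of 3 arrays with 3 contains this pair of unlike profile.

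The sequences before the start sites of Cd48, Cd84 and Slamf1 are shown. Cd48 and Cd84 were chosen for the lowest p of the family between genotypes with the replicate number as a block. Without the block Cd48 still had the lowest p, but Slamf9 and Cd244a had a lower p than Cd84. Slamf1 was added as the HSC marker. RefSeq's promoter table on GRCm38.p6 held 8 of the 9 genes, Ly9 being the one without an entry. Each run is the 250 bases before the start on the plus strand, at chr1:171681742-171681991, chr1:171839447-171839696 and chr1:171766882-171767131 in that order, written 5′ to 3′. Capitals mark matches on either strand to a GATA motif (GATAA), an ETS motif (GGAAG), a RUNX motif (TGTGGT) or an E-box (CANNTG), where N is any base.
Cd48: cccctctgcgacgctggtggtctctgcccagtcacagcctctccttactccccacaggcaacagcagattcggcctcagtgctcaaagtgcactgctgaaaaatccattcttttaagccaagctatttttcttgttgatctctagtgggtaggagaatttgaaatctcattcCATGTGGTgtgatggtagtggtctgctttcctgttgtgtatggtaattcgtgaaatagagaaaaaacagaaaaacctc
Cd84: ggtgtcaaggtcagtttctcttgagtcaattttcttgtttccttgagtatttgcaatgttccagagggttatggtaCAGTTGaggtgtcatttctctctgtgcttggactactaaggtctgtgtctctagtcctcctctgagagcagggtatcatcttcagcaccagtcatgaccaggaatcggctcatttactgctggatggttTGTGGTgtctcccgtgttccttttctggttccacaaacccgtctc
Slamf1: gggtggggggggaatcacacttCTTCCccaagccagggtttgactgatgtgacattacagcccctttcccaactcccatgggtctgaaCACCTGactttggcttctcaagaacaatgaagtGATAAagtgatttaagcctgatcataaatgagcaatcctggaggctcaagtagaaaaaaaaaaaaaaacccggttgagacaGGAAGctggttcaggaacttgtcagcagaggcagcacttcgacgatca
Cd48 and Cd84 each had 1 RUNX match, and the other 6 genes with an entry had 0. In Cd48 that match overlapped its only E-box match. Slamf1 had 1 GATA match, 2 ETS matches and 1 E-box match. Among 32851 promoter windows of the same length, 14% held the RUNX letters, 22.6% the GATA letters, 64.1% the ETS letters and 66.2% the E-box letters. A link between any of these matches and the genotype differences was not tested.

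Levels below are log2 intensities after background correction and quantile normalization, so a difference of 1 is a doubling. Differences between genotypes are Selp-/- minus WT. Probe sets whose mean level over the 6 arrays lay under the 40th percentile of all probe sets, a log2 level of 8.79, were not tested. Of the 9 SLAM probe sets, 8 were tested and Slamf6 was not. Levels of different probe sets are not comparable, so each gene was compared only with itself across arrays.

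Cd48, a lipid-anchored ligand of CD244 carried by most white blood cells and by definition absent from the surface of HSC gated by SLAM receptors, was higher in every Selp-/- array than in any WT array. Its log2 levels were 11.20, 11.33 and 11.22 in Selp-/- 1 to 3 and 10.49, 10.66 and 11.05 in WT 1 to 3. The Selp-/- arrays lay close together, and WT 3 lay nearest to them. The means were 11.25 ± 0.07 in Selp-/- and 10.73 ± 0.29 in WT HSC (SD, n = 3 each), a ratio of 1.43. The difference of 0.52 (SE 0.17) did not pass the test (limma, adjusted p = 1, unadjusted 0.0209), as was also the case with the replicate number as a block (adjusted p = 0.983, unadjusted 0.00732). Matched by number, Selp-/- 1, 2 and 3 exceeded WT 1, 2 and 3 by 0.71, 0.67 and 0.17. The deposited intensities themselves were 2921, 2350 and 2804.5 in Selp-/- 1 to 3 and 1487, 1384.5 and 2574.5 in WT 1 to 3. On that unscaled footing WT 3 lay above Selp-/- 2, and the genotypes overlapped.

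Slamf1, the gene of CD150, did not separate the genotypes. Its log2 levels were 9.43, 10.38 and 8.94 in Selp-/- 1 to 3 and 9.09, 9.41 and 9.29 in WT 1 to 3. Selp-/- HSC held both the highest and the lowest array, and their SD was 0.73 against 0.16 in WT (n = 3 each). The difference of 0.32 (95% interval -0.49 to 1.14) was 0.35, 0.97 and -0.35 between the arrays numbered 1, 2 and 3. Without Selp-/- 2 it was -0.076, so its direction rested on that array. A ratio of 1.25 between the means therefore lay within the spread of the arrays.

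**Figure D1:**
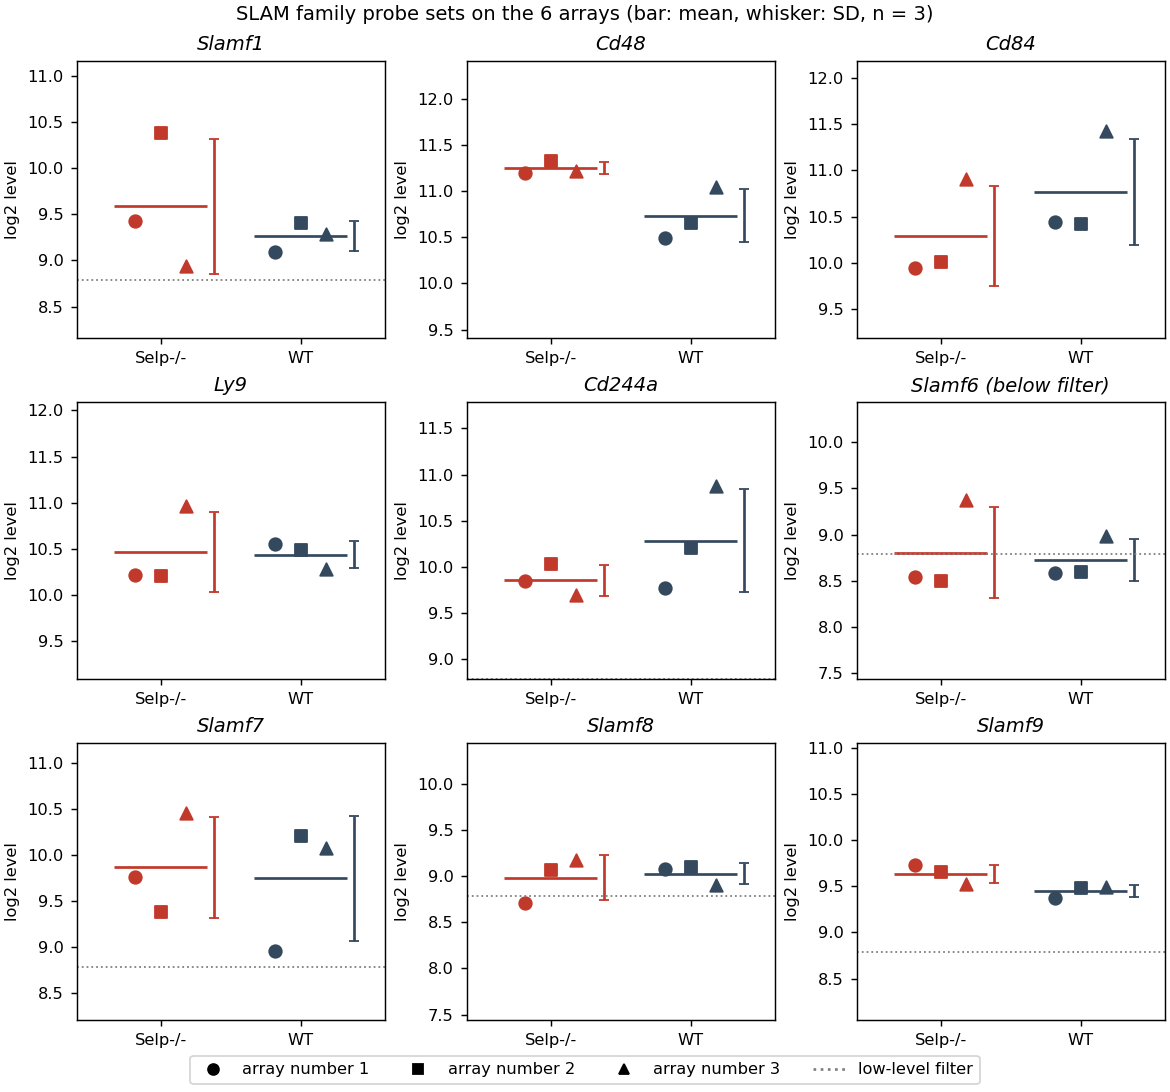
Log2 levels of the 9 SLAM family probe sets, with Selp-/- left of WT in each panel, a marker shape for each array number, a bar at the mean and a whisker of 1 SD (n = 3 each). The axis of every panel spans the same log2 range around its own values, and the dotted line is the level of 8.79 below which probe sets were not tested. Cd48 is higher in every Selp-/- array, and Cd84 is highest in the array numbered 3 of each genotype.

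Cd84, a receptor that binds itself and is found on platelets, mast cells and lymphocytes, was lower in Selp-/- than in WT within each array number. Its log2 levels were 9.94, 10.01 and 10.91 in Selp-/- 1 to 3 and 10.44, 10.42 and 11.43 in WT 1 to 3. Array number 3 was the high one in both genotypes, which made the groups overlap. The means were 10.29 ± 0.54 in Selp-/- and 10.76 ± 0.58 in WT HSC (SD, n = 3 each). The difference was -0.49, -0.42 and -0.51 between the arrays numbered 1, 2 and 3. Without normalization between arrays it was -0.20, -0.18 and -0.54, so the sign held in each pair but the likeness of the 3 values depended on the scaling. The mean difference of -0.47 did not pass without the block (SE 0.37, limma unadjusted p = 0.236, adjusted 1) or with it (SE 0.10, unadjusted p = 0.00242, adjusted 0.983). It was -0.14 without WT 3 and -0.79 without Selp-/- 3.

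Ly9, the gene of CD229, which is known from lymphocytes, had log2 levels of 10.22, 10.21 and 10.97 in Selp-/- 1 to 3 and 10.55, 10.49 and 10.28 in WT 1 to 3. Selp-/- 1 and 2 lay below all WT arrays and Selp-/- 3 above them. The mean difference was 0.03 (95% interval -0.52 to 0.58). Without Selp-/- 3 it was -0.22, and without WT 3 it was -0.050.

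Cd244a, the receptor for CD48 on natural killer cells and some progenitors, had log2 levels of 9.85, 10.03 and 9.69 in Selp-/- 1 to 3 and 9.77, 10.21 and 10.88 in WT 1 to 3. WT 3 was the highest array and Selp-/- 3 the lowest. The mean difference of -0.43 (95% interval -1.09 to 0.23) did not pass (limma, adjusted p = 1). It was 0.09 and -0.18 between the arrays numbered 1 and 2, against -1.19 between those numbered 3. Without WT 3 the mean difference was -0.13.

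Slamf7, a receptor that binds itself on natural killer and plasma cells, varied within both genotypes. Its log2 levels were 9.76, 9.38 and 10.46 in Selp-/- 1 to 3 and 8.96, 10.20 and 10.07 in WT 1 to 3. The difference between arrays of the same number was 0.80, -0.82 and 0.39, so its sign changed from pair to pair. The mean difference was 0.12 (95% interval -0.82 to 1.06), with values of -0.17 without Selp-/- 3 and -0.27 without WT 1.

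Slamf6, known from T and natural killer cells, had a mean log2 level of 8.76, just under the level required for the test. Its levels were 8.54, 8.50 and 9.37 in Selp-/- 1 to 3 and 8.58, 8.60 and 8.99 in WT 1 to 3. Arrays numbered 3 were the high ones in both genotypes, and the mean difference between genotypes was 0.08. With no filter on dim probe sets, limma gave that difference an SE of 0.26 and an adjusted p of 1.

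Slamf8 and Slamf9, receptors of macrophages and other myeloid cells with short tails, ranged over 0.46 and 0.35 on the log2 scale across the 6 arrays, less than any other member. Slamf8 had log2 levels of 8.71, 9.07 and 9.17 in Selp-/- 1 to 3 and 9.08, 9.10 and 8.90 in WT 1 to 3, with a mean difference of -0.05 (95% interval -0.39 to 0.30). That sign turned without normalization between arrays (0.037) and without Selp-/- 1 (0.093). Slamf9 had log2 levels of 9.73, 9.65 and 9.53 in Selp-/- 1 to 3 and 9.37, 9.48 and 9.49 in WT 1 to 3. Its groups did not overlap, but the gap between Selp-/- 3 and WT 3 was 0.04, and they overlapped without normalization between arrays. The difference of 0.19 (95% interval -0.065 to 0.44) did not pass (limma, adjusted p = 1).

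Across the 8 tested genes, 0 passed an adjusted p of 0.05 between genotypes (limma), and 0 with the replicate block. The background was 0% of 17289 tested probe sets in both fits. At an unadjusted p under 0.05 there was 1 of the 8, Cd48, against 0.706% of all tested probe sets. With the block there were 2, Cd48 and Cd84, against 3.64%. The genotypes did not overlap for 2 of the 8, Cd48 and Slamf9, against 4.21% of all tested. The difference had the same sign in all 3 array numbers for 3 of the 8, namely Cd48, Cd84 and Slamf9, against 23.8%. The genes did not move one way, with 5 higher in mean and 3 lower in Selp-/-. The median difference was 0.08 over the 8 and 0.01 over all tested probe sets, and the median size of the difference without regard to sign was 0.25 and 0.08. The SLAM probe sets also spread more over the 6 arrays, with a median range of 1.01 against 0.47.

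**Figure D2:**
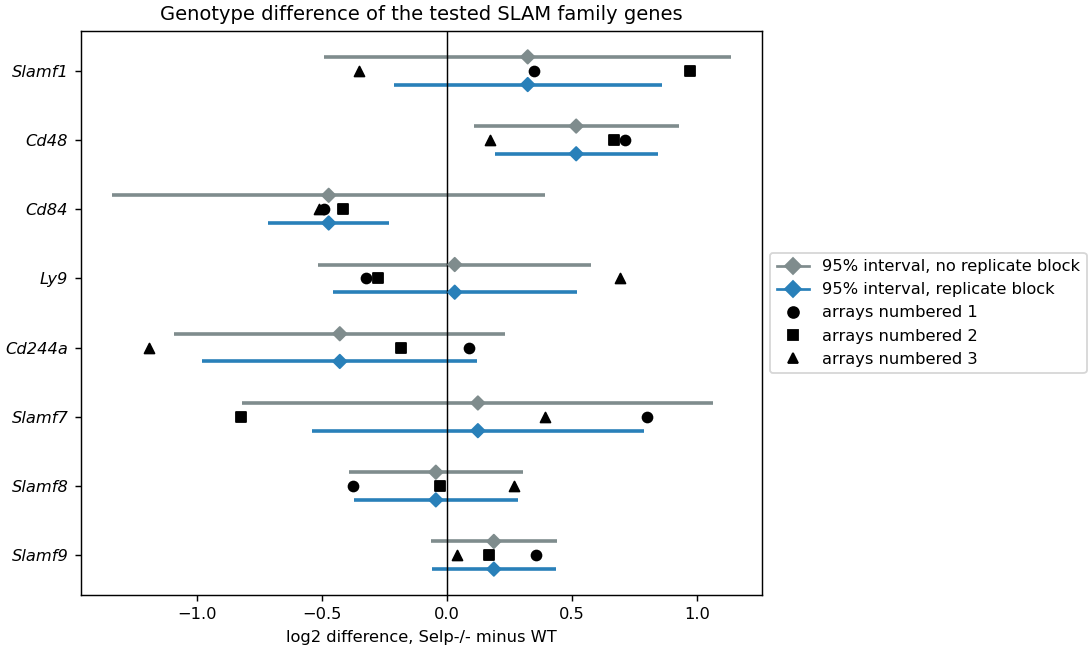
Log2 difference, Selp-/- minus WT, of the 8 tested SLAM genes. Diamonds and lines are the mean difference and its 95% interval from limma, without the replicate block (grey) and with it (blue), and black markers are the differences between arrays of the same number. For Cd84 the 3 black markers, from quantile-normalized levels, lie between -0.51 and -0.42, and for Slamf7 they lie on both sides of 0.

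Array number was then compared, taking the arrays numbered 3 against numbers 1 and 2, since these differ in cell type genes. The test was limma's F test of the array number with genotype in the model, and 12.8% of all tested probe sets passed it. Of the 8 tested SLAM genes 1 passed, Cd84 (adjusted p = 0.00585). Cd84 averaged 11.17 in the arrays numbered 3 and 10.20 in the other 4 arrays, a ratio of 1.95. The difference was 0.94 within Selp-/- and 1.00 within WT. Cd84 was also the one tested member for which both arrays numbered 3 lay above the other 4, as 20.1% of all tested probe sets did. Its adjusted p lay between 0.00613 and 0.0420 when each array was left out in turn.

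Markers of other blood cells also differed by array number, some higher and some lower in the arrays numbered 3. For comparison, 12.8% of all tested probe sets passed the test for array number. Sums on the linear scale follow the brightest genes of a list. The mast cell and basophil list, of which 7 of 9 named genes were tested, had a summed linear level of 47326 in Selp-/- 3 and 63856 in WT 3. In the other arrays the sum was 7932 and 9755 in Selp-/- 1 and 2 and 8418 and 7759.5 in WT 1 and 2. The basophil protease Mcpt8 had log2 levels of 9.60, 9.57 and 13.95 in Selp-/- 1 to 3 and 9.38, 9.65 and 14.16 in WT 1 to 3. Ms4a2 and Cma1 of that list were below the test level in mean. The monocyte and macrophage list, all 10 genes tested, had a sum of 30684 in Selp-/- 3 and 20926 in WT 3, against 10135 and 11656 in Selp-/- 1 and 2 and 9240 and 11860.0 in WT 1 and 2. The megakaryocyte and platelet list, with 7 genes named and tested, had a sum of 14412 in Selp-/- 3 and 25087 in WT 3, against 11230.0 and 9959 in Selp-/- 1 and 2 and 9976 and 7137 in WT 1 and 2. For array number 5 of the 10 monocyte genes and 2 of the 7 megakaryocyte genes passed, all higher in the arrays numbered 3 than in the mean of the others. So did 2 of 3 T and NK genes (both higher), 2 of 8 B and plasma cell genes (both lower) and 3 of 7 dendritic genes (1 higher). The F test also responds to a difference between numbers 1 and 2. Of 10 neutrophil genes 8 passed, and their list's sum was 42152, 18065 and 60689 in Selp-/- 1 to 3 and 38828, 19050.0 and 64748 in WT 1 to 3, so the arrays numbered 2 were the low ones. Of 7 erythroid genes 4 passed, and their list's sum was 23374, 7320.3 and 4789.9 in Selp-/- 1 to 3 and 23126, 7989.7 and 4298.1 in WT 1 to 3. There the arrays numbered 1 were the high ones, and those numbered 3 were the lowest in both genotypes. All 4 genes that passed were lower in the arrays numbered 3 than in the mean of the others. The part of these cells in the Cd84 difference was not tested. In bulk samples such as these, more cells of a type and more RNA per cell cannot be told apart.

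The other SLAM genes did not pass for array number. Slamf7 was higher in the arrays numbered 3 by 0.89 within Selp-/- and by 0.48 within WT (limma F test, adjusted p = 0.232). It passed without Selp-/- 2 and without WT 2, with differences of 0.33 and 1.04, fits in which 1 array stands alone for number 2. Slamf6, not tested in the main fit, was higher by 0.85 and 0.39, and both arrays numbered 3 lay above all the others. With no filter on dim probe sets Slamf6 did not pass (limma F test, adjusted p = 0.109). The same held with a filter at the 20th percentile (limma F test, adjusted p = 0.0600). The T and NK list, cells in which both genes are known, had 3 of 10 genes tested, namely Cd3e, Nkg7 and Gzmb. Of these 3, 2 were higher in the arrays numbered 3. Most of the list, with Cd3d, Cd3g, Klrb1c and Klrd1, was below the test level in mean. The summed level of the 10 genes was 14740.0 in Selp-/- 3 and 13998 in WT 3. In the other arrays it was 8360.4 and 7830.5 in Selp-/- 1 and 2 and 7575 and 7251 in WT 1 and 2. Slamf7 is also known from plasma cells, and 0 of the 8 tested B and plasma cell genes were higher in the arrays numbered 3. The part of these cells in the Slamf7 and Slamf6 values was not tested. Slamf1 was lower by 0.97 within Selp-/- and differed by 0.04 within WT, with an adjusted p of 0.175. Cd244a was lower by 0.25 within Selp-/- and higher by 0.90 within WT, a mean difference of 0.32 with an adjusted p of 0.469. With WT 3 left out, Slamf1 passed (-0.97, limma F test, adjusted p = 0.0236) and Cd244a was at -0.25. With Selp-/- 3 left out, Cd244a passed (0.90, adjusted p = 0.0320). In these fits a single array stands for number 3 and is assumed to vary like the other arrays, so they do not test number 3 across genotypes. Differences within the other genes had opposite signs in the genotypes, with 0.75 and -0.24 for Ly9, -0.04 and 0.48 for Cd48, 0.28 and -0.19 for Slamf8 and -0.16 and 0.07 for Slamf9, in Selp-/- and in WT.

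**Figure D3:**
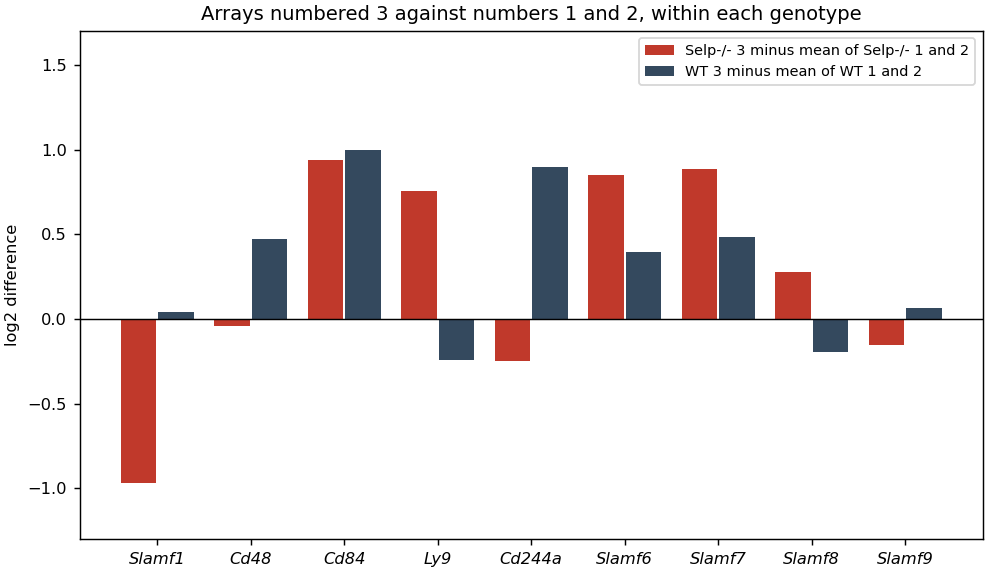
Log2 difference of the array numbered 3 minus the mean of arrays 1 and 2 for the 9 SLAM probe sets, in Selp-/- (red, left bar) and in WT (dark, right bar). Cd84 is higher by 0.94 and 1.00, and Ly9, Cd244a and Slamf1 have bars of opposite sign.

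Those opposite signs were tested as an interaction of genotype with array number 3, a fit with 2 residual degrees of freedom. Each genotype has a single array numbered 3, so the residual spread came from numbers 1 and 2 only. The p-values therefore do not speak of the spread among arrays numbered 3. The interaction passed an adjusted p of 0.05 for 0 of the 8 genes, against 0.0521% of all tested probe sets. At an unadjusted p under 0.05 there were 2, Ly9 and Cd244a, against 4.15% of all tested. For Ly9 the genotype difference was larger by 0.99 (SE 0.26) in the arrays numbered 3 than in numbers 1 and 2 (limma, unadjusted p = 0.00441, adjusted 0.698). For Cd244a it was -1.14 (SE 0.32), with an unadjusted p of 0.00602 and an adjusted p of 0.759. Cd48 gave -0.52 (SE 0.28) and Slamf1 -1.01 (SE 0.47), both with an adjusted p of 1. For Cd84 it was -0.06 (SE 0.26).

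In the arrays numbered 1 and 2 alone, with the block, the genotype difference was 0.69 (SE 0.15) for Cd48, 0.66 (SE 0.17) for Slamf1, -0.45 (SE 0.14) for Cd84 and -0.30 (SE 0.15) for Ly9. Their adjusted p from limma was 0.714, 0.760, 0.852 and 1. With so few arrays, these SEs rest mostly on the variance that limma shares across probe sets. The pairing of numbers 1 and 2 is also uncertain, as given in the processing section. Cd48, Slamf1 and Slamf9 were higher, and Cd84, Ly9, Slamf8 and the untested Slamf6 lower, in Selp-/- in both of these array numbers. Some of these differences were small, with -0.027 for Slamf8 in number 2 and -0.046 for Slamf6 in number 1. The share of all tested probe sets with the same sign in both numbers was not counted, so these signs are a description and no result about the family. Without normalization between arrays the sign turned for Slamf6, at 0.085 and 0.098, and for Slamf8 in number 2, at 0.158 after -0.185 in number 1.

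Genes that carry the signal of SLAM receptors were taken from a list of 20 adaptors and effectors, of which 19 had a probe set and 16 were tested. The adaptors closest to the receptors, Sh2d1a (SAP) and its relatives Sh2d1b1 and Sh2d1b2 (EAT-2), were all below the test level in mean. Their highest log2 level on any array was 8.37, that of Sh2d1b1 in WT 3. Of the 16 tested genes, 0 passed between genotypes and 0 for array number (limma), against 0% and 12.8% of all tested. At an unadjusted p under 0.05 there were 0 between genotypes. With 8 higher and 8 lower in mean in Selp-/-, the median difference was -0.0031. The kinase Prkcq gave the lowest p, with log2 levels of 10.16, 10.42 and 9.86 in Selp-/- 1 to 3 and 10.31, 10.40 and 11.01 in WT 1 to 3. Lcp2, the adaptor SLP-76, had a difference of -0.29, and Ptpn6, the phosphatase SHP-1, one of -0.14 (limma, adjusted p = 1 each). Fyn, the kinase that SAP recruits, had log2 levels of 10.22, 10.46 and 10.32 in Selp-/- 1 to 3 and 9.78, 10.20 and 10.63 in WT 1 to 3.

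The other surface genes of stem and progenitor gates did not separate the genotypes either. All 10 measured genes of that list were tested, and 0 passed between genotypes, with 4 higher and 6 lower in mean in Selp-/- and 0 at an unadjusted p under 0.05. For array number 9 of the 10 passed, against 12.8% of all tested probe sets, with 4 higher and 5 lower in the arrays numbered 3. Flt3, a receptor of multipotent progenitors, had log2 levels of 11.75, 11.93 and 9.36 in Selp-/- 1 to 3 and 12.14, 11.92 and 9.57 in WT 1 to 3. Fcgr3, an antibody receptor of myeloid progenitors, had 9.43, 9.04 and 11.03 in Selp-/- 1 to 3 and 9.64, 9.18 and 11.37 in WT 1 to 3. Cd34, another progenitor marker, was lower in the arrays numbered 3 by 1.28 on the log2 scale (limma F test, adjusted p = 0.00129).

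The family lies on chromosome 1, as does Selp. In the order of protein-coding genes in RefSeq, 7 members follow each other from Cd244a through Ly9, Slamf7, Cd48, Slamf1 and Cd84 to Slamf6, with Tma7-ps between Cd48 and Slamf1. Slamf9 follows after 14 further genes and Slamf8 after 4 more. Cd244a is 87 places and Slamf8 is 114 places from Selp in that order. Along the run the sign of the genotype difference changed between neighbours, with 0.52 for Cd48, 0.32 for Slamf1 and -0.47 for Cd84. The 13 other genes tested in this stretch and the 3 genes on either side ranged from -0.32 to 0.15, with 5 higher and 8 lower in mean in Selp-/-. The tested SLAM genes ranged from -0.47 to 0.52. At an unadjusted p under 0.05 there were 0 of the 13 between genotypes and 1 with the block. The shares of all tested probe sets were 0.706% and 3.64%. Of the flanking genes 3 were tested, F11r and Alyref2 before Cd244a and Dusp23 after Slamf8, with differences of -0.16, -0.04 and 0.05.

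**Figure D4:**
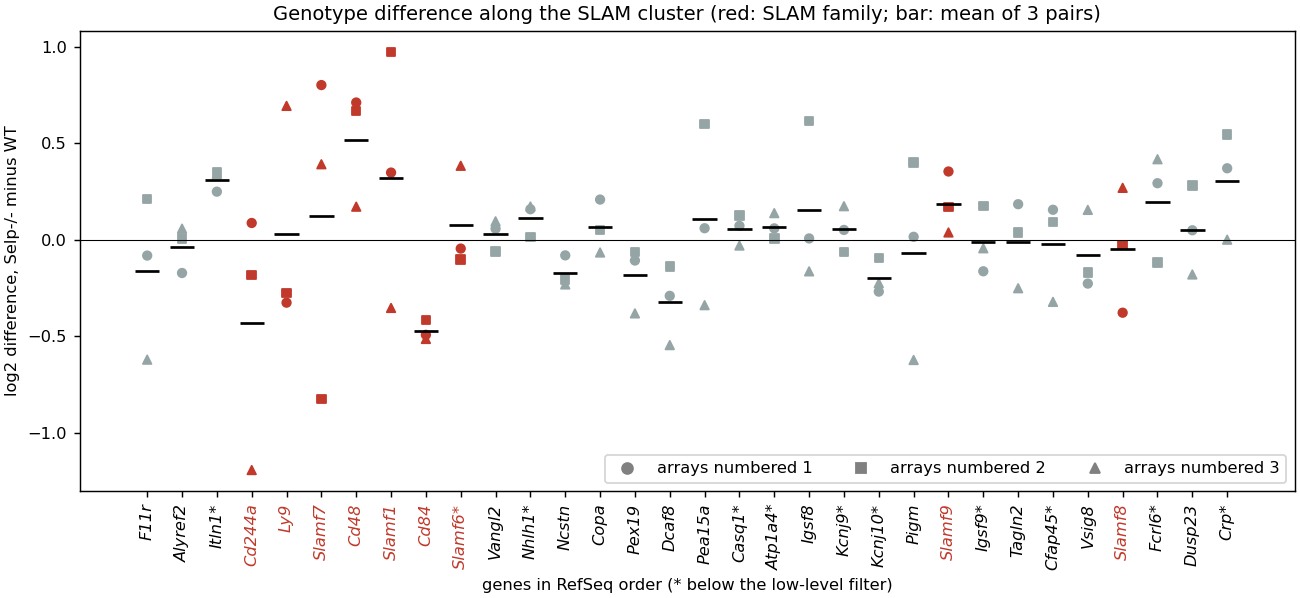
Log2 difference, Selp-/- minus WT, of each gene with a probe set from 3 genes before Cd244a to 3 genes after Slamf8, in RefSeq order (not to distance). Markers are differences between arrays of the same number, bars are their means, SLAM genes are red and a star marks a probe set below the test level. The means of Cd48 (0.52) and Cd84 (-0.47) lie on opposite sides of 0 with Slamf1 between them in the order.

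Genes with the profile most like a SLAM gene were sought by Pearson's r over the 6 arrays among 1344 named genes that spanned at least 1 on the log2 scale, for the 4 members that did so themselves. With 6 arrays and so many genes, high values of r are found for any profile, and they are given as a description. Slamf1 was most like Cyp2b10 (0.980), Clca3a1 (0.957) and Snord53 (0.894). Cyp2b10 and Clca3a1 belong to multigene families whose probes can share sequence, so their values are uncertain. Cyp2b10 had log2 levels of 9.13, 10.23 and 8.59 in Selp-/- 1 to 3 and 8.53, 8.81 and 8.87 in WT 1 to 3, so it shared with Slamf1 the high level of Selp-/- 2. Cd84 was most like S100a4 (0.977), a calcium-binding protein of motile cells, Car4 (0.973) and Serpinb6b (0.967), all highest in WT 3 and next highest in Selp-/- 3. Cd244a was most like the glucose transporter Slc2a3 (0.956), Ctla2a (0.939) and Prkcq (0.933), all highest in WT 3 and lowest in Selp-/- 3. Slamf7 was most like Il13ra1 (0.904), Arpc1b (0.898) and Fndc3b (0.890). The 4 SLAM genes thus shared none of these 12 places with each other, and r between the tested members ran from -0.67 for Slamf1 with Ly9 to 0.81 for Cd48 with Slamf9.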

How the data were processed

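The files hold 1 table of linear probe set intensities as the authors deposited them, from RNA amplified and labelled with biotin, per the labels' protocols. MAS5 is named without a version, per the submitters' processing notes. The intensities were multiples of 0.5 with unequal medians, so no scaling between arrays was visible. No genome build for the table is named in these sources.

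Intensities were corrected with normexp (offset 50), log2 transformed and quantile normalized with limma 3.58.1 under R 4.3.3. The 17289 of 28815 probe sets at or above the 40th percentile of mean level were fitted (lmFit, eBayes with a trend), two-sided, with Benjamini-Hochberg adjustment over all of them and a threshold of 0.05. Fits covered genotype, array number with genotype, and their interaction, and were tested on simulated data. Arrays give no depth, and their number limits the precision.

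Names came from the platform annotation, with 21780 probe sets of 1 symbol, 1605 of several and 5430 of none, updated through a RefSeq table (GRCm38.p6) that held 21689 of the first kind. That table served for names and gene order only. Promoter sequences are RefSeq's.

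Arrays of the same number deviated together from their genotype means (correlations 0.428, 0.526 and 0.814), so the numbers were taken to pair them. Numbers 1 and 2 were not told apart in this way, since Selp-/- 1 correlated at 0.514 with WT 2 and Selp-/- 2 at 0.37 with WT 1. The alternatives were other scaling, filters, no variance trend, the replicate block, arrays left out and the arrays numbered 1 and 2 alone. Members, lists and tests were chosen with earlier results of these data known. All members are named, with up to 4 genes a list by smallest p, the 3 genes beyond either end of the cluster, and the 3 most alike genes of members spanning 1 or more. Fyn and the list genes named as below the test level fall outside that rule, having been picked with their values in view. In all 11 lists, 0 genes passed between genotypes with or without the block. At an unadjusted p under 0.05 there were 0 without it, against 0.706% of all tested probe sets. With it there were 2 monocyte and macrophage genes and 1 each of the neutrophil, T and NK, B and plasma cell and dendritic lists. The share of all tested probe sets with the block was 3.64%.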

Additional observations from a re-analysis of the deposited data

How the results depend on the processing

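Between genotypes the number of SLAM genes past the adjusted threshold was 0 in all 17 alternatives, the replicate block (0) and arrays left out included, and for the interaction it was 0 in all 10. For array number it was 1, and 1 in 5 of 6 other settings. Without normalization between arrays it was 4 (Cd84, Ly9, Cd244a and Slamf7), where the median of all tested probe sets itself lay 0.20 higher in the arrays numbered 3 and 0.11 higher in Selp-/-. With an array left out it ran from 1 to 2. Cd48 and Cd84 kept their direction between genotypes in every alternative, from 0.39 to 0.69 and from -0.79 to -0.14. Slamf9 and Cd244a did so too, from 0.14 to 0.26 and from -0.69 to -0.048. In the arrays numbered 1 and 2 alone, with or without the block, Ly9 gave -0.30 and Slamf7 -0.011, against 0.03 and 0.12 in all 6. Without normalization Slamf8 gave 0.037 between genotypes and Slamf9 0.16 for array number. With arrays left out in turn, genotype differences ran from -0.076 to 0.65 for Slamf1, from -0.22 to 0.16 for Ly9, from -0.27 to 0.37 for Slamf7 and from -0.14 to 0.093 for Slamf8. Array number differences ran from -0.97 to 0.044 for Slamf1, -0.042 to 0.48 for Cd48, -0.24 to 0.75 for Ly9, -0.25 to 0.90 for Cd244a, -0.19 to 0.28 for Slamf8 and -0.16 to 0.067 for Slamf9. The interaction of Slamf7 ran from -0.22 to 1.02. Leaving out an array breaks a pair, and the interaction could not be fitted without an array numbered 3. The causes were not tested.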
